A study of Mus musculus with 16 samples.

Results

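Tissue factor, thrombomodulin and the natural anticoagulants were followed in the aorta as 10 genes: F3, Thbd, Procr, Pros1, Tfpi, Tfpi2, Serpinc1, Serpind1, F2r and Vwf. They were found by their gene names among the probes of a one-colour Agilent array, which gave 17 probes of 41174 and 10 genes of 28482. Where a gene had several probes, the brightest one, by its mean over the 16 arrays, carried its values, and the others are given beside it. The tissue was the aorta of female C57BL/6 mice that lack ApoE, a lipoprotein ligand whose absence makes mice prone to atherosclerosis. All groups shared that genotype, removal of the ovaries at 4 to 5 weeks of age, a subcutaneous pellet 2 weeks later and a high-fat Western-type diet, and no group kept its ovaries or lacked a pellet. The MPA group received pellets releasing medroxyprogesterone acetate and was set against 4 placebo aortas, and the NET-A group received norethisterone acetate and was set against 4 other placebo aortas, with 4 arrays in each of the 4 groups. Tissue was taken after 78 to 90 days of treatment, and no label gives a dose. Whether each sample came from its own animal is not stated either, so that a p-value here reflects only how these samples scatter, which may be in part technical.

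Blood clotting starts when tissue factor, the product of F3, meets factor VII of the plasma, and it ends in thrombin, which cuts fibrinogen and signals to cells through F2r. The vessel wall holds brakes on this chain. Thrombomodulin (Thbd) on the endothelium turns thrombin into an activator of protein C, with the help of the endothelial protein C receptor (Procr) and of protein S (Pros1) as a cofactor. Tfpi blocks the complex of tissue factor and factor VII together with factor X, while antithrombin (Serpinc1) and heparin cofactor II (Serpind1) are circulating inhibitors of thrombin made mainly by the liver.

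Levels are log2 processed signals minus the array's 75th percentile, so that 0 is that percentile of its spots and a difference of 1 is a ratio of 2. Background was clearly exceeded by 46.3% to 60.6% of spots in the MPA experiment and by 62.3% to 78.5% in the NET-A experiment. The 75th percentile of signal was 164 on MPA replicate 2 against 512 to 918 on the other arrays of its experiment, and 312 to 799 in the NET-A experiment. No spot was saturated. Smooth muscle markers stood at mean levels of 4.98 to 5.53 in MPA aortas, 5.07 to 5.53 in their placebo aortas, 5.26 to 5.63 in NET-A aortas and 5.19 to 5.72 in their placebo aortas, and all 12 endothelial markers were above background in each group.

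Of the 10 genes, 9 were well above background on at least 4 of 8 arrays in both experiments, and Tfpi2 was not on any of the 16. None of the 9 passed the threshold in either comparison. With MPA, 6 of 9 had a higher mean and 3 a lower one, with a median change of 0.08 on the log2 scale, against -0.0015 over all 15371 genes tested. Pros1 and Serpinc1 are among the 6 by their brightest probes, and their second probes had lower means. By limma, 0% of the 15371 genes passed the adjusted threshold of 0.05. An unadjusted p under 0.05 was found for 2 of the 9, Tfpi and Serpind1, both lower with MPA, against 2.49% of all genes lower, 3.77% higher and 6.26% in either direction. The groups overlapped for all 9, while they did not for 2.66% of all genes in the higher, 1.37% in the lower and 4.03% in either direction. With NET-A, 4 of 9 had a higher mean and 5 a lower one, with a median change of -0.01, against -0.03 over 21182 genes, 0% of which passed after adjustment. Only F3 reached an unadjusted p under 0.05, higher with NET-A, against 2.45% of genes higher, 3.78% lower and 6.23% in either direction. F3 was also the only one of the 9 whose NET-A and placebo values did not overlap, against 1.54% of all genes higher, 2.39% lower and 3.94% in either direction.

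**Figure D1:**
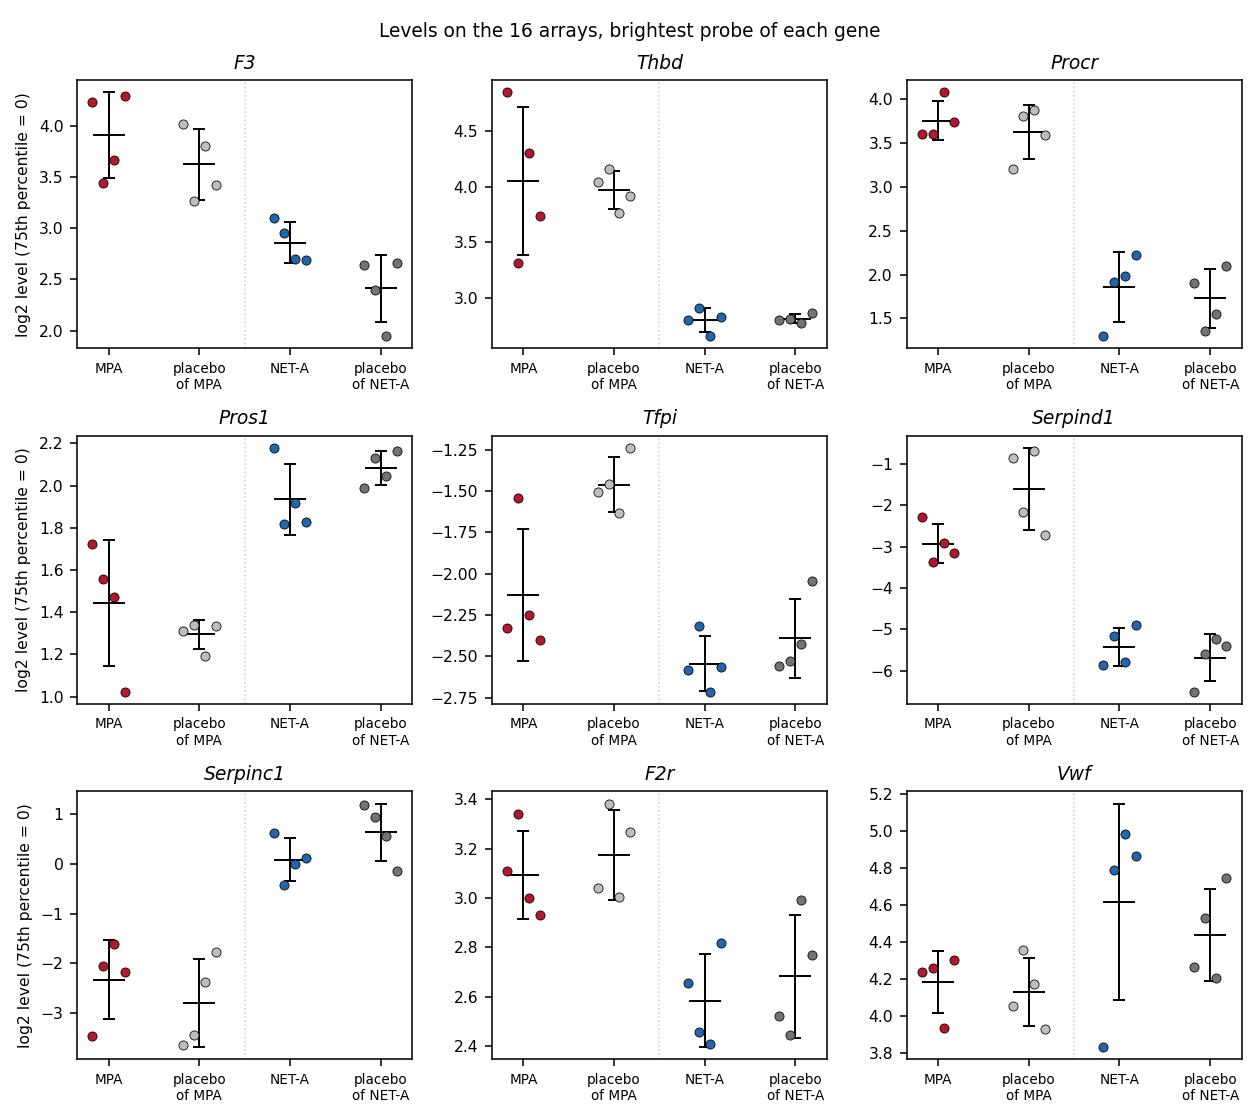
Levels of 9 genes on the 16 arrays, each by its brightest probe, as log2 signal relative to the 75th percentile of the array; points are arrays, horizontal bars group means and error bars SD (n = 4), and each panel has its own axis. F3 in NET-A aortas (2.69 to 3.10) lies above its placebo aortas (1.95 to 2.66), and 3 of 4 MPA aortas lie below the lowest placebo value for Tfpi and for Serpind1.

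F3 encodes tissue factor, the membrane receptor that starts coagulation and that is known from the adventitia, smooth muscle and plaque macrophages. Its level was 3.10, 2.95, 2.70 and 2.69 in the NET-A aortas, against 2.64, 2.40, 1.95 and 2.66 in their placebo aortas. Every NET-A array lay above every placebo array, by little at the nearest pair, and 1 placebo array lay well below the other 3. The change was 0.45 ± 0.19 (SE, n = 4 arrays a group), a ratio of 1.36, with a 95% interval of 0.01 to 0.89 and an adjusted p of 0.795 (limma), so F3 did not pass. Without placebo replicate 3, the low array, the change was 0.29. It was 0.45 with the slide as a block (adjusted p = 0.571) and 0.52 within slide 5, the only slide with 2 arrays of both groups.

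In the MPA experiment F3 stood at 4.24, 3.44, 3.67 and 4.29 in MPA aortas and at 4.02, 3.27, 3.81 and 3.42 in placebo aortas. The groups were intermixed, with 2 MPA arrays above the highest placebo array. The change was 0.28 ± 0.25 (95% interval -0.29 to 0.85, adjusted p = 0.884), 0.20 within slide 1 and 0.37 within slide 2. With normexp background correction it was -0.09. In bulk tissue, fewer cells of a type and less RNA per cell cannot be told apart, for F3 and for every gene below. Markers of macrophages, 1 of the sources of tissue factor in plaque, had lower means for 8 of 8 genes in both comparisons, with medians of -0.55 with MPA and -0.61 with NET-A. Their summed linear level, in multiples of the 75th percentile, was 38.1 to 61.5 in MPA and 74.7 to 133 in placebo aortas, and 20.5 to 34.1 in NET-A and 26.6 to 74.3 in placebo aortas. Their part in the values of F3 was not tested.

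A second probe for F3 read a stretch that starts 40 bases upstream and shares 20 bases with the first, at chr3:121437335-121437354 (mm9, plus strand). The shared stretch is shown because the 2 designs do not spell it alike; capitals mark the bases that differ, T9G and G15C from the first probe to the second, counted from 1 at the first shared base.
F3, brighter probe: ggacgaacTgaaacGgtaca
F3, second probe: ggacgaacGgaaacCgtaca
The second probe stood at 2.45, 2.34, 2.04 and 2.15 in NET-A aortas, against 1.81, 1.71, 1.45 and 2.27 in placebo aortas. Here 1 placebo array lay among the NET-A arrays. The change was 0.44 ± 0.19 (95% interval -0.01 to 0.88, adjusted p = 0.797), and with MPA it was 0.48 ± 0.24 (adjusted p = 0.822). Both probes thus gave a higher mean with each progestin, and neither passed.

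The 250 bases before the start of F3 (RefSeq, GRCm38.p6, chr3:121723287-121723536, plus strand) are shown as the promoter of the only gene of the 10 with separated groups. Capitals mark matches to TGANTCA, the AP-1 motif, whose letters read the same on both strands, and to GGGCGG, the GC box, on either strand.
F3 promoter: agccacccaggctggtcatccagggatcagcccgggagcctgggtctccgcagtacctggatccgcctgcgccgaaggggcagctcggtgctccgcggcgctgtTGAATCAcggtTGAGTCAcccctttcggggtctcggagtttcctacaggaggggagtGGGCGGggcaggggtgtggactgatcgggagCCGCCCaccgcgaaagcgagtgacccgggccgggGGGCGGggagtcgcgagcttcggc
The AP-1 letters begin at -146 and -135 from the start site and the GC box letters at -89, -58 and -24, with no overlap between them. Of 32851 windows of the same length, 6.7% held TGANTCA and 32.7% held GGGCGG. The letters AGAACA, a half-site of the receptors for progesterone, glucocorticoids and androgens, were not in the F3 window and were in 16.1% of all windows. Among 11 windows matched to 8 of the 10 genes they occurred at 1 site, which lies in 2 overlapping windows of Tfpi2. The motifs marked for F3 were not particular to it among these windows. TGANTCA was also found for Procr, F2r and Tfpi2, and GGGCGG for Tfpi, Tfpi2, F2r and Pros1. These are matches of letters and not measured binding sites.

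Thbd encodes thrombomodulin, the thrombin receptor of the endothelium, and was read at chr2:148230235-148230294 (mm9, minus strand). Its level was 4.85, 3.31, 4.30 and 3.73 in MPA aortas, against 4.04, 4.16, 3.76 and 3.92 in placebo aortas. The MPA arrays spread on both sides of the placebo arrays, 2 above and 2 below all of them, with an SD of 0.67 in MPA and 0.17 in placebo aortas. The change was 0.08 ± 0.30 (95% interval -0.61 to 0.77, adjusted p = 0.977), and it ran from -0.19 without MPA replicate 1 to 0.32 without MPA replicate 2. In the NET-A experiment Thbd stood at 2.80, 2.91, 2.66 and 2.83 in NET-A aortas and at 2.80, 2.81, 2.77 and 2.86 in placebo aortas. The values were nearly level on all 8 arrays. The change was -0.01 ± 0.11 with a 95% interval of -0.26 to 0.23, the narrowest of the 9 genes in that comparison (adjusted p = 0.997).

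Procr encodes the endothelial protein C receptor, which presents protein C to thrombomodulin-bound thrombin, and was read at chr2:155580945-155581004 (mm9, plus strand). It stood at 3.60, 3.61, 4.08 and 3.74 in MPA aortas and at 3.20, 3.81, 3.88 and 3.59 in placebo aortas. NET-A aortas gave 1.30, 1.92, 1.98 and 2.23, against 1.91, 1.35, 1.55 and 2.10 in placebo aortas. In both experiments the groups overlapped, and the change was 0.13 ± 0.19 with MPA (adjusted p = 0.922) against 0.13 ± 0.24 with NET-A (adjusted p = 0.996).

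Pros1 encodes protein S, the vitamin K-dependent cofactor of activated protein C, which also assists Tfpi. Its brighter probe (chr16:62928674-62928733, mm9) stood at 1.72, 1.56, 1.47 and 1.02 in MPA aortas and at 1.31, 1.34, 1.19 and 1.33 in placebo aortas. MPA replicate 4 lay below all placebo arrays and the other 3 MPA arrays above them. In NET-A aortas the values were 2.18, 1.82, 1.92 and 1.83, against 1.99, 2.13, 2.04 and 2.17 in placebo aortas, with NET-A replicate 1 above all placebo arrays and the other 3 below. The changes were 0.15 ± 0.17 (adjusted p = 0.906) with MPA and -0.15 ± 0.12 (adjusted p = 0.944) with NET-A. The second probe gave -0.10 ± 0.18 with MPA, against the sign of the first, and -0.14 ± 0.13 with NET-A.

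Tfpi encodes the Kunitz-type inhibitor that shuts off tissue factor, and it is made by endothelial and smooth muscle cells. Its brightest probe (chr2:84293962-84294021, mm9, minus strand) carries the sequence below, shown because it gave the smallest p-value of the 10 genes in either comparison.
Tfpi, brightest probe: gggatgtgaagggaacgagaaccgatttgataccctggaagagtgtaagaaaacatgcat
It stood at -2.33, -1.54, -2.25 and -2.40 in MPA aortas, against -1.51, -1.46, -1.63 and -1.24 in placebo aortas. MPA replicate 2 lay among the placebo arrays and the other 3 MPA arrays below all of them. The change was -0.67 ± 0.21, a ratio of 0.629, with a 95% interval of -1.15 to -0.19 and an adjusted p of 0.733, so Tfpi did not pass. It was -0.45 within slide 1, which holds MPA replicate 2, -0.89 within slide 2 and -0.67 with the slide as a block (adjusted p = 0.645).

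MPA replicate 2 was the dimmest of the 16 arrays, and without it the change of Tfpi was -0.87 (adjusted p = 0.624). With normexp background correction it was 0.03, and the direction did not hold. A second Tfpi probe (chr2:84313860-84313919) was above background on 3 arrays of each group and gave -0.47 ± 0.44 with MPA. In NET-A aortas the first probe stood at -2.58, -2.32, -2.71 and -2.57, against -2.56, -2.53, -2.43 and -2.04 in placebo aortas, a change of -0.15 ± 0.16 (adjusted p = 0.958). The second gave -0.49 ± 0.21 with NET-A (adjusted p = 0.797). The mean of Tfpi was lower on both probes and with both progestins, with no call, and the third probe was above background on no array.

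Tfpi2 encodes a related Kunitz-type inhibitor of plasmin and other proteases, held in the extracellular matrix. Its single probe (chr6:3915439-3915498, mm9, minus strand) is shown because it gave no signal well above background on any of the 16 arrays, so that no fold is given.
Tfpi2: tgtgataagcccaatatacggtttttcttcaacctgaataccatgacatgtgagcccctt
Its processed signal was 6.22 to 28.4 in MPA aortas, 10.4 to 12.5 in their placebo aortas, 3.09 to 8.58 in NET-A aortas and 2.28 to 8.70 in theirs.

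**Figure D2:**
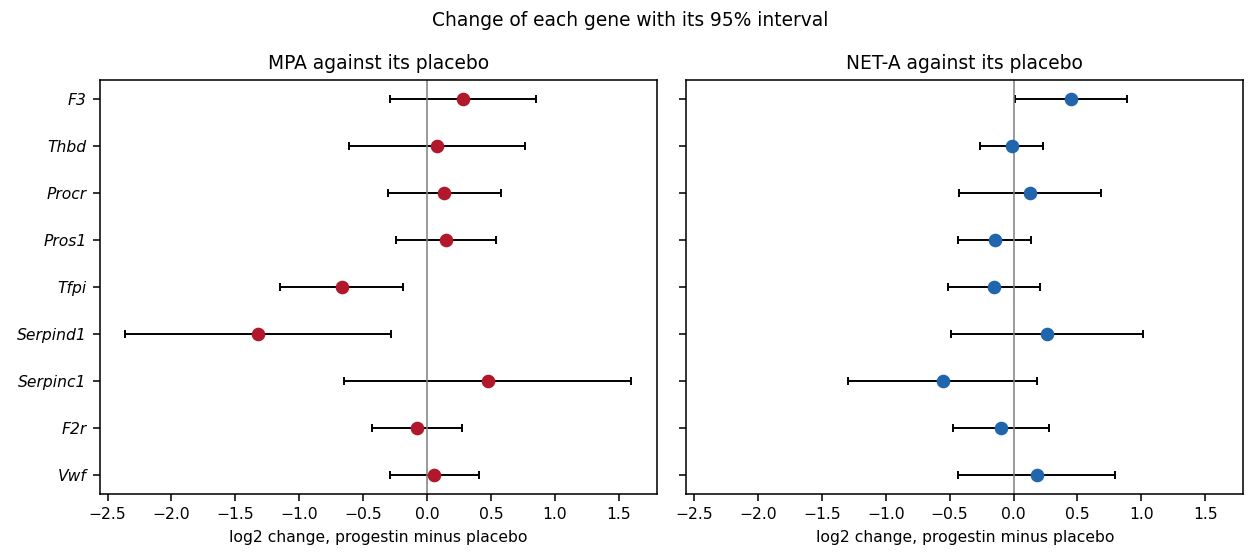
Change of each of 9 genes on the log2 scale, progestin minus its own placebo, with 95% intervals from limma (n = 4 arrays a group); MPA is on the left and NET-A on the right. Intervals leave out 0 for Tfpi and Serpind1 with MPA and for F3 with NET-A, and none of these passed after adjustment over all genes.

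Serpind1 encodes heparin cofactor II, a thrombin inhibitor that dermatan sulfate of the vessel wall activates. Its probe lies at chr16:17343544-17343603 (mm9, plus strand). It stood at -2.29, -3.36, -2.91 and -3.15 in MPA aortas, against -0.85, -2.16, -0.71 and -2.71 in placebo aortas. The placebo arrays fell into a high and a low pair, and the low pair came near the MPA arrays, 3 of which lay below all placebo arrays. The probe exceeded background clearly on 3 arrays of MPA aortas and all 4 of placebo aortas. The change was -1.32 ± 0.46, a ratio of 0.400, with a 95% interval of -2.36 to -0.28 and an adjusted p of 0.760, so Serpind1 did not pass. It was -1.32 within each of slides 1 and 2, -1.02 without placebo replicate 3, -1.69 without placebo replicate 4, and 0.06 with normexp background correction.

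In the NET-A experiment Serpind1 was near the limit of detection, above background on 2 NET-A and 2 placebo arrays. It stood at -5.85, -5.15, -5.79 and -4.90 in NET-A aortas and at -6.50, -5.60, -5.24 and -5.40 in placebo aortas. The groups overlapped, and the change was 0.26 ± 0.33 (adjusted p = 0.980).

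Markers of hepatocytes, the cells that secrete most plasma heparin cofactor II, were measured beside Serpind1 in the MPA experiment. Of 8 such genes 6 were kept, all 6 had a lower mean with MPA, and their median change was -0.94. Their summed linear level was 11.1 to 18.6 in MPA and 16.2 to 57.1 in placebo aortas, and Ttr was above background on no array. Over the 5 hepatocyte genes kept in both experiments, the mean level was 0.15, -0.35, -0.12 and -0.63 in MPA aortas and 0.67, 0.43, 1.61 and -0.51 in placebo aortas. From highest to lowest, the placebo arrays stood in the same order, 3, 1, 2 and 4, for these markers and for Serpind1. The MPA arrays did not, with 1, 3, 2 and 4 for the markers and 1, 3, 4 and 2 for Serpind1. In the NET-A experiment the same mean was -3.88, -4.09, -3.37 and -3.11 in NET-A aortas and -3.82, -3.60, -3.93 and -2.75 in placebo aortas, and the summed level was 0.733 to 1.97 in NET-A and 0.681 to 1.40 in placebo aortas. In that experiment Alb was above background on 2 NET-A and 2 placebo arrays, Apoh on 3 and 2, and Fgb on 4 and 2. Serpina1b was above it on 3 and 4 and Ahsg on 4 and 4. The hepatocyte means there thus rest in part on values near the limit of detection. The part of hepatocyte transcripts in the values of Serpind1 was not tested.

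**Figure D3:**
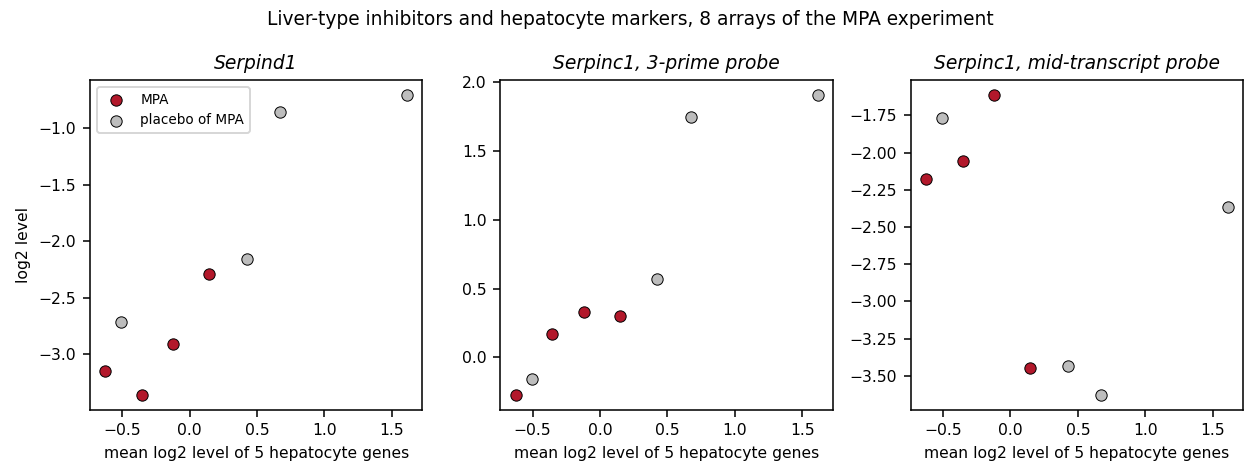
Level of Serpind1 and of both Serpinc1 probes (vertical, log2) against the mean log2 level of 5 hepatocyte genes (horizontal) on the 8 arrays of the MPA experiment; red points are MPA and grey points placebo. Serpind1 and the 3′ probe of Serpinc1 are highest on the placebo array at 1.61 and on the one at 0.67, whereas the mid-transcript probe of Serpinc1 is not.

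Serpinc1 encodes antithrombin, the main plasma inhibitor of thrombin and factor X, and its 2 probes went opposite ways with MPA. The probe that was brighter on average over all 16 arrays lies in the middle of the transcript, and the other lies toward its 3′ end (chr1:162932565-162932624, mm9). In the MPA experiment the mid-transcript probe was the dimmer, with a processed signal of 39.5 to 185, against 185 to 2102 on the 3′ probe. It was well above background there on 4 MPA arrays and 3 placebo arrays. The 3′ probe is shown by its first 30 bases because it is the one with a lower mean in MPA aortas than in placebo aortas.
Serpinc1, 3′ probe, first 30 bases: gggagagtggctaatccttgtgtgaactaa
The mid-transcript probe stood at -3.45, -2.06, -1.62 and -2.18 in MPA aortas and at -3.63, -3.43, -2.36 and -1.77 in placebo aortas. The 3′ probe stood at 0.30, 0.17, 0.33 and -0.27 in MPA aortas and at 1.75, 0.57, 1.91 and -0.16 in placebo aortas. On the first probe the groups were intermixed, and on the second 3 of 4 placebo arrays lay above all MPA arrays. The changes were 0.47 ± 0.50 (adjusted p = 0.900) and -0.88 ± 0.43 (95% interval -1.87 to 0.10, adjusted p = 0.822). On the mid-transcript probe the change ran from 0.20 without placebo replicate 1 to 0.85 without MPA replicate 1, and it was 0.96 with normexp background correction (adjusted p = 0.096). The 3′ probe ordered the placebo arrays 3, 1, 2 and 4, as the hepatocyte markers and Serpind1 did, and the mid-transcript probe did not. On the MPA arrays the order of the 3′ probe was 3, 1, 2 and 4, unlike that of the markers or of Serpind1.

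In the NET-A experiment the mid-transcript probe of Serpinc1 stood at 0.63, -0.41, -0.01 and 0.11 in NET-A aortas and at 1.17, 0.94, 0.57 and -0.15 in placebo aortas. The change was -0.55 ± 0.32 (95% interval -1.29 to 0.19, adjusted p = 0.871), with 1 NET-A array below all placebo arrays. The 3′ probe was near the limit, above background on 3 NET-A and 3 placebo arrays, and gave -0.25 ± 0.46. The placebo aortas of the MPA experiment thus read 3.43 lower than those of the NET-A experiment on the mid-transcript probe (-3.43) and 5.47 higher on the 3′ probe. No call rests on Serpinc1.

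**Figure D4:**
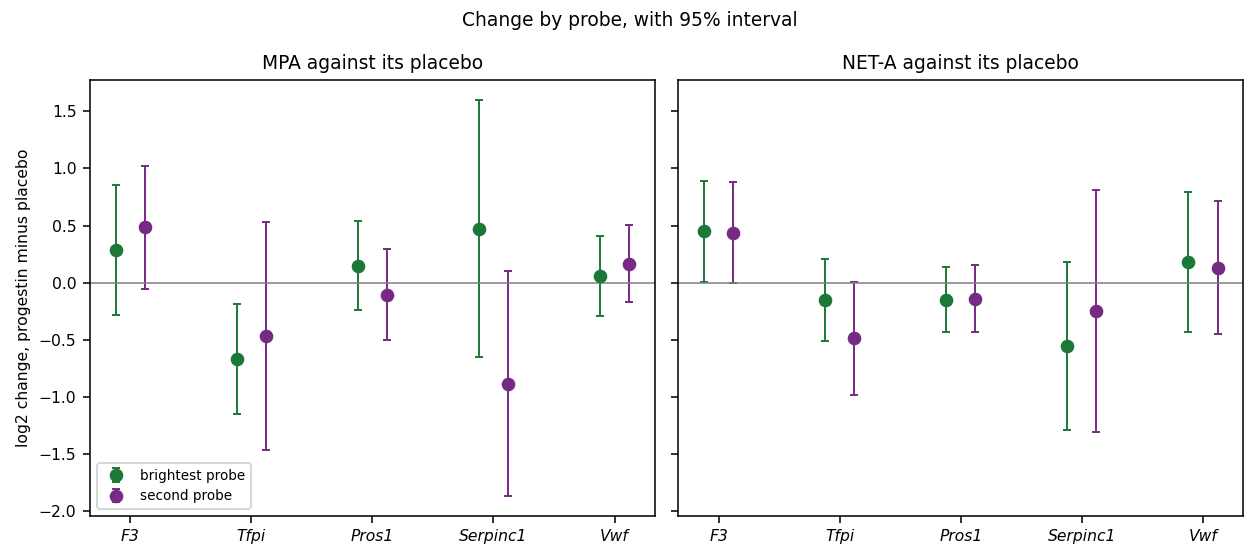
Change on the log2 scale, progestin minus its own placebo, by the brightest (green) and the second probe (purple) of the 5 genes with a pair of tested probes; error bars are 95% intervals from limma (n = 4 arrays a group). Of 10 probe pairs, 8 have the same sign, and the exceptions are Pros1 and Serpinc1 with MPA.

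F2r encodes the thrombin receptor PAR1 of smooth muscle and endothelial cells, which in mice is not the thrombin receptor of platelets. Its probe lies at chr13:96371902-96371961 (mm9, minus strand). It stood at 3.11, 3.34, 3.0 and 2.93 in MPA aortas and at 3.04, 3.38, 3.01 and 3.27 in placebo aortas. NET-A aortas gave 2.66, 2.46, 2.41 and 2.82, against 2.52, 2.45, 2.99 and 2.77 in placebo aortas. The groups overlapped in both experiments, with 2 MPA arrays and 1 NET-A array below the lowest array of their placebo group. The changes were -0.08 ± 0.16 with MPA (95% interval -0.43 to 0.28, adjusted p = 0.949) and -0.10 ± 0.16 with NET-A (95% interval -0.47 to 0.28, adjusted p = 0.994).

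Vwf encodes von Willebrand factor, the adhesive protein that endothelial cells and platelets store and that carries factor VIII in plasma. Its brightest probe (chr6:125636551-125636610, mm9) stood at 4.24, 4.26, 3.94 and 4.30 in MPA aortas and at 4.05, 4.36, 4.17 and 3.93 in placebo aortas. The 8 arrays lay within a narrow band, and the change was 0.06 ± 0.16 (95% interval -0.29 to 0.41, adjusted p = 0.968). In NET-A aortas the level was 3.83, 4.79, 4.98 and 4.86, against 4.27, 4.53, 4.20 and 4.75 in placebo aortas. NET-A replicate 1 lay below all placebo arrays and the other 3 NET-A arrays above them. The change was 0.18 ± 0.27 (adjusted p = 0.990), and 0.44 ± 0.17 without NET-A replicate 1 (adjusted p = 0.803). The second probe (chr6:125635858-125635917) also had its lowest NET-A value on replicate 1, with 2.05, 3.13, 3.12 and 2.90 in NET-A aortas, and gave 0.17 ± 0.15 with MPA and 0.13 ± 0.26 with NET-A. The third probe was above background on 0 MPA arrays and 0 of their placebo arrays, and on 2 NET-A arrays and 1 of theirs, and was not tested.

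Endothelial markers stood beside Vwf in that low array. The mean level of 12 endothelial genes was 0.76, 1.78, 1.13 and 1.24 in NET-A aortas and 1.08, 1.21, 0.95 and 1.27 in placebo aortas. NET-A replicate 1 was thus the lowest array of its experiment. In the MPA experiment that mean was 2.03, 1.69, 1.74 and 2.03 in MPA aortas and 1.73, 1.91, 1.98 and 1.48 in placebo aortas. The list had 8 of 12 genes higher with MPA (median 0.10) and 9 of 12 with NET-A (median 0.15), and its summed level was 50.4 to 64.6 in MPA and 44.2 to 62.6 in placebo aortas, and 27.4 to 51.1 in NET-A and 32.2 to 38.1 in placebo aortas. Markers of platelets, the other source of Vwf, had higher means for 12 of 12 genes in both comparisons, with medians of 0.75 and 1.64. Their summed level was 57.1 to 108 in MPA and 52.8 to 71.3 in placebo aortas, and 34.3 to 49.3 in NET-A and 21.9 to 31.7 in placebo aortas. NET-A replicate 1 also had the lowest mean of its experiment for the macrophage (0.08, against 0.13 on NET-A replicate 3) and adipocyte (2.66) markers. The part of any of these lists in the values of Vwf was not tested.

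**Figure D5:**
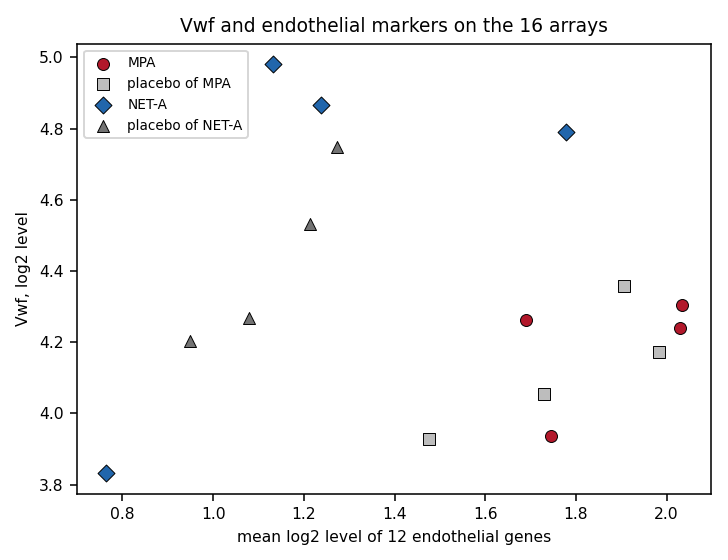
Level of Vwf (vertical, log2, brightest probe) against the mean log2 level of 12 endothelial genes (horizontal) on the 16 arrays, with a marker shape for each group. NET-A replicate 1 has the lowest value on both axes, 3.83 and 0.76, and the arrays of the MPA experiment lie to the right of most arrays of the NET-A experiment.

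Set side by side, 5 of the 9 genes had the same sign with both progestins, 3 of them higher (F3, Procr and Vwf) and 2 lower (Tfpi and F2r). The test of the difference, MPA change minus NET-A change, was run on 15241 genes and called 0% of them after adjustment, with 6.86% at an unadjusted p under 0.05. Serpind1 had a difference of -1.58 ± 0.60 (95% interval -2.85 to -0.31, adjusted p = 0.616), and it was barely detected in the NET-A experiment. Serpinc1 had 1.03 ± 0.63 (adjusted p = 0.821), Tfpi -0.51 ± 0.26 (95% interval -1.07 to 0.04, adjusted p = 0.749) and Pros1 0.30 ± 0.20 (adjusted p = 0.849). The interval for F3 was -0.85 to 0.52 around a difference of -0.17, and that for Thbd was -0.62 to 0.80 around 0.09. For Procr, F2r and Vwf the differences were 0.0052, 0.02 and -0.12. By the second probes the differences were 0.048 for F3, 0.020 for Tfpi, 0.035 for Pros1, -0.64 for Serpinc1 and 0.034 for Vwf. For F3, Tfpi, Serpinc1 and Vwf the sign was opposite to that of the brightest probe, so the difference depended on the probe. No gene of the 9 thus passed, the intervals leave room for differences of either sign in all but Serpind1, and since the doses are not given the responses are not compared at a matched dose.

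Levels also differed between the placebo groups of the 2 experiments, whose slides and scanner software differ, so that these cannot be told apart from any difference between the animals. Placebo aortas of the MPA experiment stood above those of the NET-A experiment by 1.22 for F3, 1.16 for Thbd, 1.89 for Procr, 0.93 for Tfpi, 0.49 for F2r and 4.08 for Serpind1, with no overlap of the arrays. The gap of Serpind1 is not an exact one, since it was above background on 2 of the 4 placebo arrays of the NET-A experiment. For Pros1 the gap was -0.79, again with no overlap, and for Vwf -0.31, with overlap. Of the 15241 genes kept in both comparisons, 34% stood higher in the placebo aortas of the MPA experiment with no overlap and 24.4% stood lower, so that gaps of this kind were common among all genes. By its brighter probe, F3 had its highest mean in MPA aortas (3.91 ± 0.42), then in their placebo aortas (3.63 ± 0.35). NET-A aortas (2.86 ± 0.20) and their placebo aortas (2.41 ± 0.33) followed (SD, n = 4 each). Within each experiment those neighbours differed by no more than the test above allows. The second Tfpi probe had a gap of 0.063, with overlap. The second F3 probe did not keep the gap of the first either, since its placebo mean was 1.41 in the MPA experiment and 1.81 in the NET-A experiment. By that probe the mean was highest in NET-A aortas (2.25), then in MPA aortas (1.89), so the order of the groups depended on the probe.

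Among 14515 genes measured in both experiments, the ones most like each gene were found by Pearson's r over the 16 arrays after the mean of each group was taken off. These are descriptions without a test, and the genes of 1 array share its labelling, hybridisation and RNA quality. Each gene named was picked for its high r among 14515, and such picking alone gives high values. How high r would run for unrelated genes was not tested, so no relation is read from it. F3 was most like Naa40 and Kif3b (r = 0.83 each), Thbd like Mcm3 (0.96) and Csk (0.94), and Procr like Gchfr and Sult1a1 (0.85 each). Pros1 was most like Ndrg4 (0.82), Tfpi like Tacc3 (0.86) and Dnaaf2 (0.85), and F2r like Tex10 (0.91) and Stfa3 (0.88). Serpind1 was most like Gcc1 (0.88) and the gene of the liver plasma protein Hrg (0.87). Serpinc1 by its mid-transcript probe was most like Hydin (0.93) and Paqr6 (0.92), and Vwf like the clock gene Ciart (0.89) and Spon1 (0.88). Some of these values were uneven between the MPA and NET-A experiments. They were 0.61 and 0.97 for Vwf with Ciart, 0.98 and 0.73 for Thbd with Mcm3, and 0.94 and 0.67 for Serpind1 with Hrg. F2r with Tex10 was even, at 0.92 and 0.93.

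The rest of the pathway was described by 29 other genes: clotting factors, fibrinogen chains, protein C, further serpins, thrombin receptors, the vitamin K enzymes and the endothelial factors Klf2 and Klf4. With MPA 19 of them were kept, 4 with a higher and 15 with a lower mean, a median of -0.16, and 0 passed in either direction. Unadjusted p was under 0.05 for 2, both lower, against 2.49% of all genes lower, and 0 had separated groups, against 4.03% of all genes in either direction. The 3 with the smallest p were the fibrinogen chains Fgg (-1.09 ± 0.43, adjusted p = 0.768) and Fgb (-0.94 ± 0.41) and prothrombin, F2 (-1.05 ± 0.46), which are all made by hepatocytes, and Fgb also stands on the hepatocyte list. With NET-A 24 were kept, 12 higher and 12 lower, with a median of -0.01, and 0 passed. Unadjusted p was under 0.05 for 1, higher with NET-A, against 2.45% of all genes higher, and 0 had separated groups, against 3.94% in either direction. The 3 with the smallest p were factor V, F5 (1.66 ± 0.50, adjusted p = 0.621), which platelets store and which was above background on 4 NET-A and 2 placebo arrays, Fgb (0.82 ± 0.38) and protein Z, Proz (-0.37 ± 0.17).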

How the data were processed

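The deposited files are scanner outputs of one-colour Agilent arrays. Per the file headers, Agilent Feature Extraction, version 10.7.1.1 for the MPA experiment and 11.0.1.1 for the NET-A experiment, measured the intensity of each spot and subtracted background; probes are placed on build mm9. The authors' deposited series table holds log2 values and served as an alternative; how it was made is not stated in the labels or files.

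Flagged outlier and control spots were left out (0.515% of spots were outliers), the 75th percentile over the remaining spots was subtracted from log2 processed signal, spots of a probe were averaged, and a gene took its brightest probe. Genes well above background on at least 4 of 8 arrays were compared with limma 3.58.1 in R 4.3.3 (lmFit and eBayes, two-sided, Benjamini-Hochberg over all genes, threshold 0.05); ± beside a change is its standard error. The code was tested on simulated data. Of genes given a log2 change of 1, it recovered 49% in the MPA comparison and 41% in the NET-A comparison. For a change of 2 it recovered 89% and 79%. A true change of 1 could thus often be missed. Gene names in the NET-A files came through probe names from the MPA files, and 26690 probes matched RefSeq by accession. The number of arrays limits the precision.

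Placebo groups were assigned by the letter in their titles and by shared slides. The genes and lists were chosen with earlier results of these data known. Genes named beyond the 10 were, for the other clotting genes, those with separated groups or else the 3 with the smallest p, and for likeness the 3 with the highest correlation, of which 1 to 2 are printed. Marker lists covered endothelial, platelet, smooth muscle, macrophage, fibroblast, mesothelial, adipocyte, hepatocyte, erythroid and skeletal muscle cells. Those not described with a gene had medians, with MPA and with NET-A, of 0.01 and -0.02 (smooth muscle), -0.33 and 0.09 (fibroblast), 0.37 and -0.25 (mesothelial), -0.03 and 0.04 (adipocyte), 1.07 and 1.53 (erythroid), and -2.26 and 1.07 (skeletal muscle). Alternatives tried were background correction, normalization, the filter, outlier spots, slide and replicate blocks, array weights, other probes and leaving out each array. The sequence of 1 Serpinc1 probe is not reported here.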

Additional observations from a re-analysis of the deposited data

Results flagged for a closer look

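The level of Vwf on NET-A replicate 1 was 3.83, far below the other 3 NET-A arrays at 4.79 to 4.98. The gap to the nearest array was 0.834 of the whole range of the group. The same array had the lowest endothelial mean of its experiment, and the second Vwf probe was lowest on it among the NET-A arrays. It also had the lowest macrophage (0.08) and adipocyte (2.66) means of its experiment, and the highest smooth muscle mean (5.63) of the NET-A arrays. The macrophage mean was close behind on NET-A replicate 3, at 0.13. Fewer of its spots, 62.3%, clearly exceeded background than on any other array of its experiment. In all, 40 groups of member values were looked at, and chance alone singles out about 1 in 20 of them.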

How the results depend on the processing

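None of the 9 genes passed after adjustment in any alternative run. At an unadjusted p under 0.05 (limma) the main fit had 962 genes with MPA, and the alternatives 678 to 4302. With NET-A the main fit had 1319 such genes, and the alternatives 550 to 1838. After adjustment, the count of changed genes with MPA was 0 in 18 of 20 alternatives. It was 1 with the slide as a block (S100a8) and 1 with all 16 arrays in 1 fit (AK052744). With NET-A the count was 0 in all 19. For the difference it was 1 with quantile normalization (AK052744), 1 with the replicate block (Sall4) and from 0 to 1 on leaving out an array (1, Fam107a, without NET-A replicate 1), and 0 otherwise. These genes are named after their values were seen, and none is one of the 10.

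Normexp background correction, which used the median spot signal in the NET-A experiment, reversed many signs. With MPA it gave -0.086 for F3, -0.24 for Thbd, 0.034 for Tfpi, -0.24 for Procr, -0.13 for Pros1, 0.060 for Serpind1 and -0.28 for Vwf, with 4302 genes at an unadjusted p under 0.05. With NET-A, where it moved the median of all genes to -0.13, it gave 0.085 for Thbd, 0.018 for Pros1 and -0.49 for Serpind1. For the difference it gave -0.33 for Thbd, 0.44 for Tfpi, -0.41 for Procr, -0.15 for Pros1, 0.55 for Serpind1 and -0.36 for F2r, with 4313 genes unadjusted. The cause was not tested.

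Within slide 1 Thbd was -0.020 and F2r 0.012 with MPA, within slide 2 Pros1 was -0.017, and within slide 5 Thbd was 0.050 with NET-A. Array weights gave -0.018 for Thbd and -0.025 for Pros1 with MPA and 0.030 for F2r with NET-A. The second probe gave -0.10 for Pros1 and -0.88 for Serpinc1 with MPA. In the difference it reversed the sign for F3 (0.048), Tfpi (0.020), Serpinc1 (-0.64) and Vwf (0.034). On leaving out each array, signs changed for Thbd (-0.19 to 0.32), Procr (-0.0066 to 0.22) and Vwf (-0.0094 to 0.14) with MPA, for Thbd (-0.052 to 0.033), Serpind1 (-0.011 to 0.41) and F2r (-0.18 to 0.0050) with NET-A, and for Thbd (-0.17 to 0.34), Procr (-0.18 to 0.13) and F2r (-0.085 to 0.097) in the difference. F3 with NET-A kept its sign in all 20 alternatives, from 0.29 to 0.53. With NET-A, Tfpi, Serpinc1 and Vwf also kept theirs in all 20, and Procr in all 19. The alternatives reuse the same arrays, so a kept sign is not independent evidence.

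Same-numbered arrays did not pair, with correlations of their deviations from -0.23 to 0.24 with MPA and from -0.20 to 0.24 with NET-A. The replicate block left the call of every one of the 9 genes as it was, with adjusted p of 0.641 for Serpind1 and 0.724 for Tfpi with MPA and 0.782 for F3 with NET-A. Signal over background limits Serpind1 and the 3′ probe of Serpinc1 in the NET-A experiment and Tfpi2 in both. In the MPA experiment it also limits Serpind1, above background on 3 MPA arrays, and the mid-transcript probe of Serpinc1, above it on 3 placebo arrays. The second Tfpi probe was above it on 3 arrays of each group there.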
